A study of Danio rerio with 54 samples.

Results

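Retinas collected after 36 h of light (36 hpl, hours post light) were compared with dark-adapted retinas that had received no damaging light (0 h). The 12 libraries, 6 at 36 hpl and 6 at 0 h, were chosen by their time point labels from the 54 libraries of the series. Each was 3′ mRNA-seq of 1 retina from the left eye of an adult albino (alb) zebrafish aged 6 to 9 months. The 36 hpl fish spent 5 days in darkness, received 30 min of broad-spectrum light at about 100000 lux, and were then kept at about 10000 lux under 4 halogen lamps. The 0 h fish were taken after the same 5 days of darkness. Both groups share the alb genotype, the age range and the dark adaptation, so 0 h stands for a dark-adapted retina and not for one under a normal day and night cycle. The 36 hpl and 0 h groups also differ in light and, since 36 h is not a whole number of days, in time of day. Light itself, time of day and the lesion cannot be told apart in any comparison of 36 hpl with 0 h below. A library mixes all cells of the retina with some vitreous, so fewer cells of a type and less RNA per cell cannot be told apart in any value below.

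Intense light damages the rods and cones of albino fish. In zebrafish the Müller glia (MG), which span the retina and support its neurons, respond by leaving their resting state and dividing into progenitors that can become new photoreceptors. Stat3 signalling, the proneural factor Ascl1a and the RNA-binding protein Lin28a are known to be needed for this response.

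Total counts per library were 1730921 to 4040445 at 36 hpl and 1111503 to 1906743 at 0 h, and the 10 most counted genes held 4.70 to 5.64% of counts at 36 hpl and 10.4 to 13.2% at 0 h. The names of the raw read files place replicates 1 to 3 in one experiment (experiment 1) and replicates 4 to 6 in another (experiment 2), and each retina came from a different fish, since only left eyes were taken. Levels are given as counts per 1000000 (CPM) on library sizes corrected by the trimmed mean of M-values (TMM), as the range over the 6 retinas of a group with the median. A gene is said to have risen or fallen where edgeR's quasi-likelihood test, with terms for time point and experiment over the 48 libraries of the time-course, gave a Benjamini-Hochberg adjusted p below 0.05 over all genes tested. Changes are log2 fold changes, on which 1 is a 2-fold difference, and a number in parentheses after a gene or its levels is its log2 fold change, followed where given by the standard error (SE).

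Close to equal numbers of genes rose and fell at 36 hpl. Of 13075 genes tested, 3081 rose and 3060 fell, which is 23.6% and 23.4% of the genes, and counts of list members below are to be read against these shares. Changes of at least 4-fold were found for 558 genes that rose and 366 that fell. The median change over all genes tested was −0.08, and 0.02 on library totals without TMM correction, where 3505 genes rose and 2570 fell. The 6 retinas of one group lay wholly above the 6 of the other for 1696 genes that were higher at 36 hpl and 1204 that were lower (13% and 9.21% of genes), and where the levels of both groups are given below they did not overlap unless the text says so. The change had the same sign in both experiments for 6090 of the 6141 genes called. That share is no test of agreement, since the call pooled both experiments. In a fit over all libraries with a separate change for each experiment, 1903 rose and 1402 fell in experiment 1 (25.3% of genes). In experiment 2 the counts were 2878 and 2783 (43.3%). Of these genes 2779 were called in both experiments in the same direction and 6 in opposite directions. Fits to the libraries of 1 experiment alone called 4016 genes in experiment 1 and 4953 in experiment 2.

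**Figure D1:**
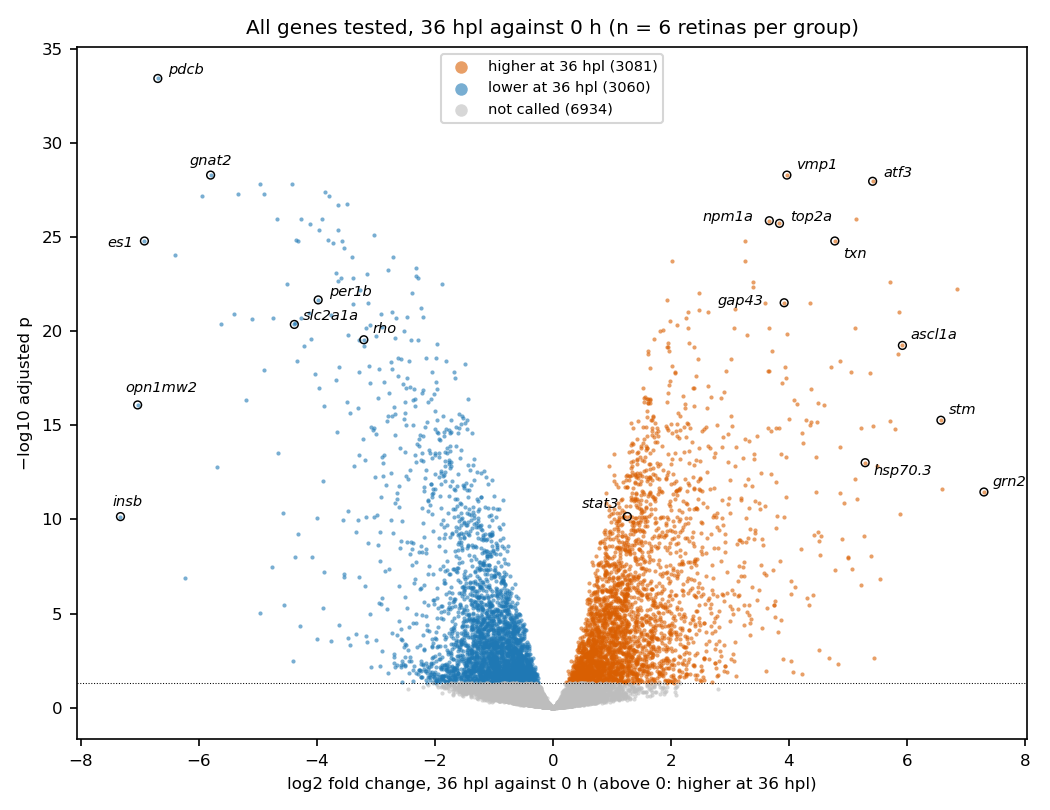
Log2 fold change at 36 hpl against 0 h (x axis, positive is higher at 36 hpl) and −log10 of the adjusted p from edgeR's quasi-likelihood test (y axis) for the 13075 genes tested, n = 6 retinas per group. Orange points are the 3081 genes that rose, blue points the 3060 that fell and grey points the rest, with the names of genes described in the text; phosducin gene pdcb stands at the top left and vmp1 and atf3 at the top right.

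The genes with the largest falls included many of phototransduction. Transcript of pdcb, a phosducin that binds the beta and gamma subunits of transducin, was at 34.8 to 52.5 CPM (median 39.2) at 36 hpl, against 3744 to 5175 CPM (median 4061) at 0 h (log2 fold change −6.70, SE 0.19, adjusted p = 3.63e-34). The gap between the lowest 0 h retina and the highest 36 hpl retina was wide for this gene, and the groups did not overlap for any gene named in this paragraph. The gene es1, whose product enlarges the mitochondria of zebrafish cones, stood at 10.8 to 47.1 CPM (median 20.2) at 36 hpl, against 2187 to 3565 CPM (median 2826) at 0 h (log2 fold change −6.92). Green opsin opn1mw2 was at 3.75 to 27.1 CPM (median 5.71) at 36 hpl, against 607 to 3280.4 CPM (median 1237) at 0 h (−7.04). The opsin kinase gene grk1b was at 1.61 to 10.1 CPM (median 4.69) at 36 hpl and 348 to 520.5 CPM (median 441) at 0 h (−6.41). Below, grk1b is counted with the rod genes, though its cell type was not tested. Others among the 15 largest falls were the calcium sensor ncaldb (−5.94), the cone transducin subunits gnat2 (−5.80) and gngt2b (−5.401), the guanylate cyclase activators guca1d (−5.69) and guca1c (−5.09), green opsin opn1mw3 (−5.20) and the cone phosphodiesterase pde6c (−4.96). The remaining genes of the 15 were of other kinds. The fatty acid binding protein gene fabp1a fell by 5.63 on the log2 scale, the preproinsulin gene insb was counted with 2 reads in all over the 36 hpl retinas and 293 at 0 h (a ratio of 0.00405, 95% counting interval 0.000488 to 0.0148), and zgc:195245 and zgc:193593 (−5.33 and −4.90) carry no functional name.

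All but 1 of the 9 opsins tested fell (median change −4.14), with no opsin higher at 36 hpl. Opsins are the light-sensing receptors of rods (rho) and of the UV, blue, green and red cones. Rhodopsin rho was at 1868 to 4155 CPM (median 2944) at 36 hpl, against 20962 to 37774 CPM (median 26329) at 0 h (−3.204, SE 0.19). UV opsin opn1sw1 was at 162 to 448 CPM (median 227) at 36 hpl and 3314 to 9167 CPM (median 4629) at 0 h (−4.33, SE 0.28), and blue opsin opn1sw2 at 79.0 to 209 CPM (median 141) at 36 hpl and 1829.5 to 3869.9 CPM (median 2311) at 0 h (−4.14, SE 0.23). Neither overlapped between the groups. Red opsin opn1lw1 was lower at 36 hpl by a smaller amount, with 259 to 682 CPM (median 427) at 36 hpl against 1842 to 3519 CPM (median 2320.0) at 0 h (−2.46, SE 0.24), and the second red opsin, opn1lw2, overlapped between the groups (−1.41; −2.08 in experiment 1 and −0.86 in experiment 2). Green opsin opn1mw4 was not called, at 192 to 608 CPM (median 401) at 36 hpl and 279.8 to 578 CPM (median 466) at 0 h, and its groups overlapped. Within experiment 1 it fell (−0.83, adjusted p = 0.0201 in the edgeR fit) with no overlap, and within experiment 2 it was not called (0.34), while the difference between the experiments did not pass the test (adjusted p = 0.136). Compared with 24 hpl, the level at 36 hpl was higher for opn1mw4 (2.59), opn1lw1 (1.25), opn1lw2 (1.60) and opn1sw1 (0.98). Each passed the threshold in that comparison, in which 6.19% of all genes were higher and 5.25% lower at 36 hpl. Of the 9 opsins 6 were higher and 0 lower than at 24 hpl. Other photoreceptor genes went the other way in that comparison. Of 22 cone phototransduction genes 13 were lower and 2 higher at 36 hpl (median −0.76), and of 17 rod genes 9 and 1 (−0.49).

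The phototransduction cascade downstream of the opsins fell in rods and cones. Of 17 rod phototransduction genes tested 16 fell and 0 rose (median −2.67), and of 22 cone genes 21 fell and 0 rose (median −3.62; −3.70 in experiment 1 and −4.05 in experiment 2). Rod transducin alpha, gnat1, was at 261 to 509.7 CPM (median 347) at 36 hpl and 2939 to 3868 CPM (median 3394) at 0 h (−3.27, SE 0.17). Its cone counterpart gnat2 was at 56.3 to 167 CPM (median 118) at 36 hpl and 5799 to 6932 CPM (median 6399) at 0 h (−5.80, SE 0.21), and cone transducin beta, gnb3b, at 414 to 703 CPM (median 465) at 36 hpl and 13197 to 19710.5 CPM (median 15399) at 0 h (−4.90). The 36 hpl retinas lay below every 0 h retina for each of these subunits. The arrestins, which shut the receptors off, fell too, with saga of rods at a log2 change of −3.30 and arr3a of cones at a log2 change of −2.83. The calcium side of the cascade fell as well, through recoverin rcvrna (−3.49), the cone guanylate cyclase gc3 (−4.12) and the sodium, calcium and potassium exchanger slc24a2 (−4.33). The 2 members not called were gnb3a (−0.26), a transducin beta gene that is also on the bipolar cell list, and rcvrnb, which had few reads, both named after their values were seen. Summed over the cone list, the level was 3148 to 4988 CPM at 36 hpl and 47880.3 to 79534 CPM at 0 h.

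Genes of the outer segment and of the photoreceptor synapse followed. Of 17 outer segment and cilium genes 16 fell and 0 rose (median −1.85), among them the disc rim proteins prph2b (−4.27), prph2a (−3.73), rom1b (−3.03) and rom1a (−2.88) and the actin bundler fscn2b (−3.96). Of 13 synaptic genes 12 fell and 0 rose (median −1.101). The ribbon synapse complexin cplx4a was at 148 to 316 CPM (median 209.9) at 36 hpl and 1339 to 1715 CPM (median 1426) at 0 h (−2.79), and the calcium channel regulator cabp4 and the glutamate transporter slc17a7a stood at log2 changes of −2.89 and −1.86. Genes of retinoid recycling were mixed, with 8 of 25 lower and 5 higher. Those made in photoreceptors were lower, namely irbp, the retinoid carrier of the space around the outer segments (−3.67), the dehydrogenase rdh8b (−4.03) and the disc transporter abca4a (−3.31). The retinoid isomerase rpe65a, made in the pigment epithelium, was higher, at 533 to 1342 CPM (median 586) at 36 hpl and 218 to 565 CPM (median 315) at 0 h (0.94, adjusted p = 0.0124 in the edgeR fit), with overlapping groups and no call within either experiment alone.

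Transcription factors that set photoreceptor fate had a smaller median change than the genes of the cascade. Of 21 tested, 12 fell and 2 rose (median −0.36). The photoreceptor homeobox gene crx was at 371 to 479 CPM (median 395) at 36 hpl and 1003 to 1385 CPM (median 1121) at 0 h (−1.49, SE 0.10). Factors of cone subtypes were lower as well, the red cone receptor thrb at a log2 change of −2.096, the UV and blue cone regulator foxq2 at a log2 change of −3.02 and the green cone regulator six7 at a log2 change of −1.59. Rod factors gave less certain values, with nrl at a log2 change of −1.55 and nr2e3 not called (−0.28). The exceptions in the other direction were prdm1a, a zinc finger repressor active in newborn photoreceptors of vertebrates, at 46.3 to 66.9 CPM (median 56.9) at 36 hpl and 9.92 to 19.3 CPM (median 12.5) at 0 h (2.01), and the retinoid receptor rxrgb (1.17).

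**Figure D2:**
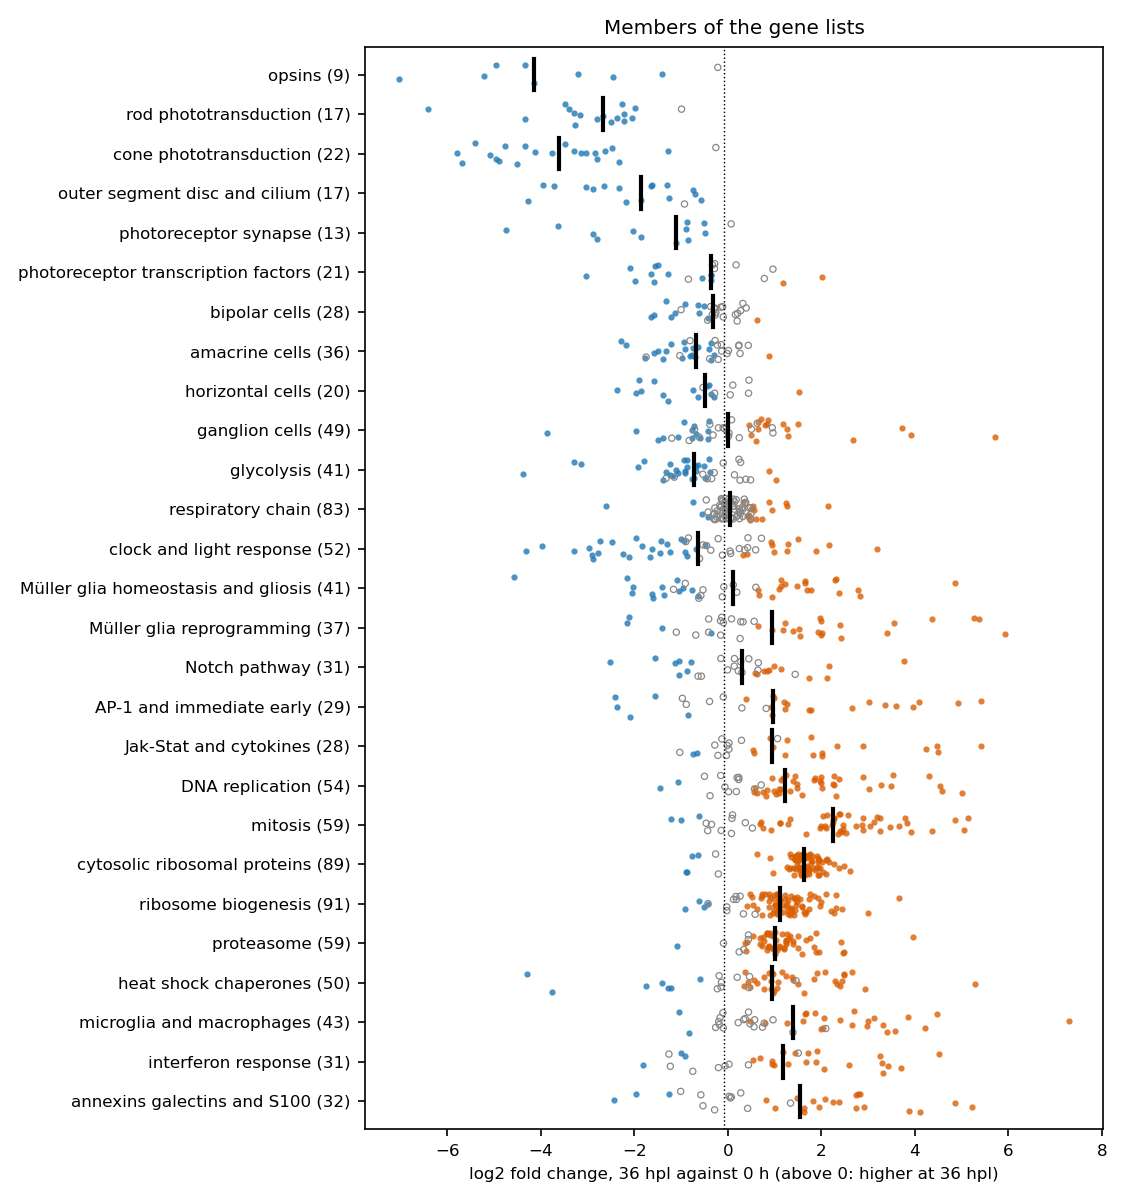
Log2 fold change at 36 hpl against 0 h (x axis) of every tested member of the gene lists drawn (rows, with the number of members tested), chosen from those in the text, each point 1 gene, filled where it passed the test and open where it did not, and the black bar the median of the list. The dotted line is the median over all genes tested (−0.08); photoreceptor lists lie to its left, and the mitosis, ribosomal protein and microglia lists to its right.

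Marker lists of amacrine, horizontal and bipolar cells, neurons of the inner retina, had smaller median changes, and more of their genes fell than rose. Of 36 amacrine genes 20 fell and 1 rose (median −0.67), of 20 horizontal cell genes 13 fell and 1 rose (−0.49), and of 28 bipolar genes 10 fell and 1 rose (−0.31). The GABA-synthesizing enzymes gad1b and gad2 of amacrine cells were at log2 changes of −0.98 and −0.81, the calcium buffer calb2a at a log2 change of −1.38 and neuropeptide Y, npy, at a log2 change of −2.18. The horizontal cell connexin cx52.6 was at 3.09 to 9.11 CPM (median 7.53) at 36 hpl and 25.0 to 64.7 CPM (median 32.0) at 0 h (−2.38) and the olfactory marker homologue ompa at a log2 change of −1.89. Bipolar markers divided. The homeobox gene vsx1 was not called, with 381 to 492 CPM (median 424) at 36 hpl and 406 to 553 CPM (median 460.3) at 0 h in overlapping groups, nor was cabp5a (0.32), while the On-bipolar channels trpm1a (−1.32) and trpm1b (−1.64) fell. The difference between the experiments did not pass the test for vsx1. In experiment 2 it was at 381 to 418 CPM at 36 hpl and 489 to 553 CPM at 0 h, without overlap. In experiment 1 it was at 430 to 492 CPM at 36 hpl and 406 to 432 CPM at 0 h, which overlapped.

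Genes listed for ganglion cells, the output neurons of the retina, moved in both directions, with 17 of 49 higher and 14 lower. Those that rose most code for the growth cone protein gap43, at 465 to 734 CPM (median 537) at 36 hpl and 27.9 to 48.5 CPM (median 37.4) at 0 h (3.92, SE 0.21), and for tubulins. Tubulin tuba1b was at 522 to 1861 CPM (median 917) at 36 hpl and 6.82 to 35.4 CPM (median 16.4) at 0 h (5.72), tubb5 was at a log2 change of 3.72 and tuba1a at a log2 change of 2.68. None of these is particular to ganglion cells, since growing axons, dividing cells and injured Müller glia of zebrafish can also express them. The filament gene inaa of mature axons went the other way, at 37.4 to 65.3 CPM (median 48.4) at 36 hpl and 634 to 903 CPM (median 706) at 0 h (−3.86). Synuclein sncgb was at a log2 change of −1.96. Transcription factors that define the cells changed by less than 1 on the log2 scale, pou4f1 by 0.60 and isl2b by −0.69. The neuronal RNA-binding proteins elavl3 and elavl4 differed in direction (−0.75 and 0.64).

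Immediate early and stress transcription factors rose, though not as a block. Of 29 genes of this list 18 rose and 5 fell, or 3 without 0 h replicate 3 (median 0.97). The bZIP factor atf3, induced by cell stress, was at 845 to 1604 CPM (median 1256) at 36 hpl and 17.97 to 41.0 CPM (median 29.4) at 0 h (5.42, SE 0.20, adjusted p = 1.06e-28). The AP-1 subunit jun was at 126 to 353 CPM (median 252) at 36 hpl and 8.69 to 21.8 CPM (median 14.8) at 0 h (3.97), junbb was at a log2 change of 3.59, and fosl1a and fosl2 rose by less (1.23 and 0.94). The growth arrest genes gadd45ga (4.09) and gadd45ba (3.02) rose with them. Genes of the same list that neurons switch on with electrical activity were lower, npas4a at a log2 change of −1.55 (not called without 0 h replicate 3, at −1.04), egr4 at a log2 change of −2.37 and nr4a1 at a log2 change of −2.42, although each overlapped between the groups and was at low levels, egr4 for example at 2.81 to 7.64 CPM (median 4.50) at 36 hpl and 2.56 to 82.5 CPM (median 16.9) at 0 h.

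Components of cytokine signalling through Jak and Stat rose at several levels of the pathway. Of 28 tested, 16 rose and 2 fell (median 0.94). Among ligands, leptin b (lepb), a cytokine of injured zebrafish tissue, was at 20.3 to 41.2 CPM (median 33.2) at 36 hpl and 0 to 4.96 CPM (median 0.824) at 0 h (4.49), and the cytokine-receptor-like factor crlf1a was at 130.4 to 217 CPM (median 185) at 36 hpl and 0.622 to 15.6 CPM (median 7.59) at 0 h (4.48). Among receptors and kinases, il6st, the shared gp130 subunit, was at a log2 change of 1.78 and jak1 at 445 to 614 CPM (median 569) at 36 hpl and 130.3 to 181 CPM (median 153) at 0 h (1.82, SE 0.11). The transcription factor stat3 was at 133 to 210.5 CPM (median 169) at 36 hpl and 56.0 to 89.9 CPM (median 69.6) at 0 h (1.26, SE 0.14). Among targets, the feedback inhibitor socs3b was at 42.1 to 124 CPM (median 76.4) at 36 hpl and 0 to 3.58 CPM (median 1.45) at 0 h (5.42), cebpb at a log2 change of 4.24 and the kinase pim1 at a log2 change of 2.02. The inhibitor cish (0.29) was not called, and stat5a (−0.66) and the neurotrophic cytokine cntf (−0.74; not called without 36 hpl replicates 1, 3, 4, 5 or 6 or 0 h replicates 3, 5 or 6, at −0.75 to −0.50) fell.

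The genes known for Müller glia reprogramming rose in part. Of 37 tested, 20 rose and 4 fell (median 0.94). The proneural factor ascl1a was at 169.5 to 257 CPM (median 213) at 36 hpl and 0 to 8.08 CPM (median 2.61) at 0 h (5.92, SE 0.37), and every 36 hpl retina lay far above every 0 h retina. The RNA-binding protein lin28a was at 10.9 to 77.2 CPM (median 32.6) at 36 hpl and 3.73 to 12.4 CPM (median 9.12) at 0 h (1.99), with groups that overlapped. The stem cell factor sox2 (1.97), sox11b (3.39), the chromatin protein hmga1a (1.93), the adhesion molecule cdh2 (2.02) and the matrix protease mmp9 (108 to 524 CPM (median 297) at 36 hpl and 2.79 to 10.2 CPM (median 6.91) at 0 h, log2 change 5.37) rose. The neurogenic factor insm1a was not called (0.33), nor was myca (−0.15). Lower genes were the retinal homeobox genes rx1 (−2.16) and rx2 (−2.11), pax6b (−0.36) and the growth factor mdka (−1.40). Whether the transcripts of these lower genes came from Müller glia was not tested. Growth factors as a group showed no common direction, with 15 of 72 higher and 17 lower, and their largest members included the heparin-binding ligand hbegfa (1.55), the activin subunit inhbb (2.71) and igf1 (−2.31).

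**Figure D3:**
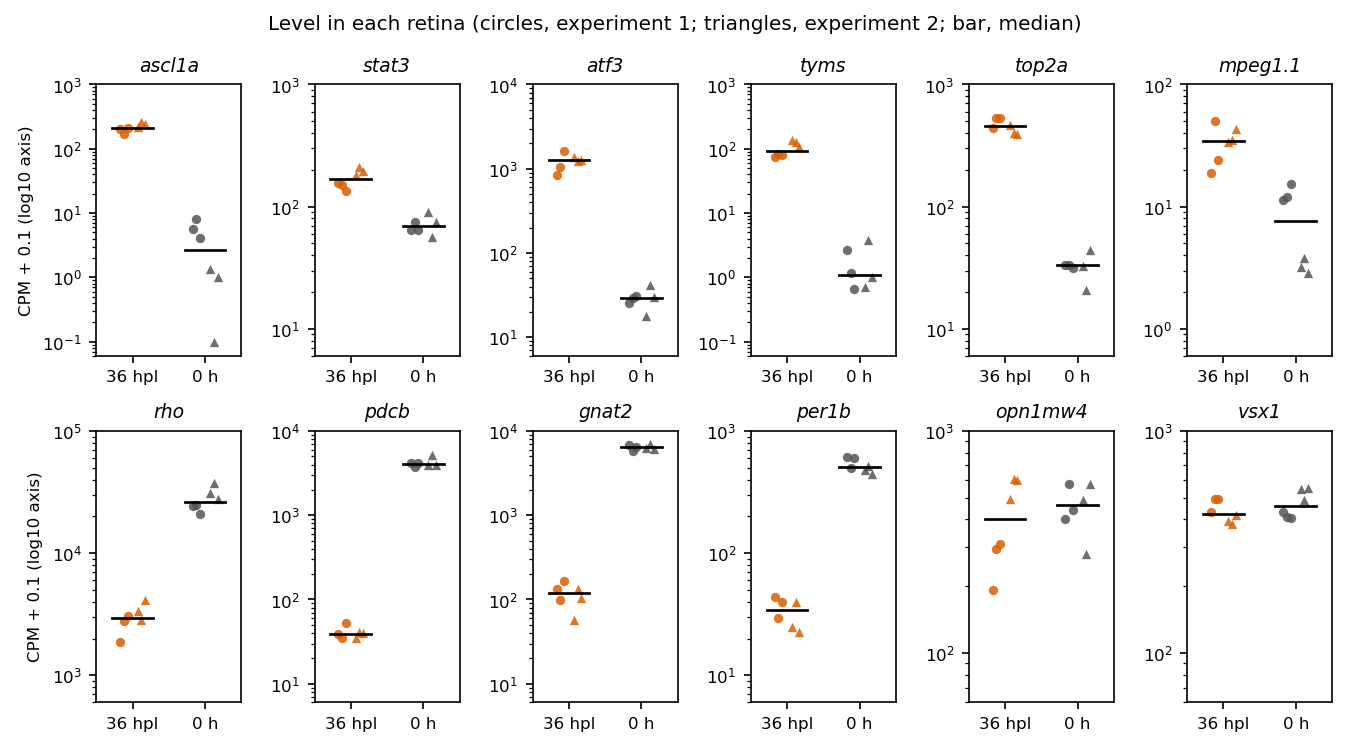
Levels (CPM, log10 axis, plus 0.1 so that 0 can be drawn) of 12 genes in the 36 hpl retinas (left, orange) and 0 h retinas (right, grey) of experiment 1 (circles) and experiment 2 (triangles), n = 6 retinas per group, with the median as a bar. The upper 6 genes lie higher at 36 hpl and the lower row holds 4 genes that lie lower and 2, opn1mw4 and vsx1, whose groups overlap.

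Listed markers of Müller glia, measured here in the whole retina, moved in both directions. Of 41 genes, 18 rose and 13 fell. The glial filament gfap was at 44.1 to 86.2 CPM (median 63.4) at 36 hpl and 7.43 to 22.4 CPM (median 19.8) at 0 h (1.78, SE 0.16), annexin anxa2a at 25.4 to 169 CPM (median 92.4) at 36 hpl and 1.71 to 6.20 CPM (median 2.21) at 0 h (4.87), the keratin krt8 at a log2 change of 2.31 and apolipoprotein apoeb, which is also on the microglia list, at a log2 change of 1.64. The genes that fell included several of the homeostatic cell. Glutamine synthetase glula was at 303 to 568 CPM (median 426) at 36 hpl and 699 to 1299 CPM (median 785) at 0 h (−1.04), the retinaldehyde-binding protein rlbp1a at a log2 change of −2.15, the glutamate transporters slc1a2b and slc1a2a at log2 changes of −1.62 and −4.57, carbonic anhydrase ca2 at a log2 change of −2.06 and the gap junction gene cx43 at a log2 change of −1.096. The fall of slc1a2a was the largest among the called genes of this list, and whether its transcript came from Müller glia was not tested. Annexins, galectins and S100 genes, which rise in many injured tissues, had 19 of 32 members higher and 3 lower. Their median was 1.55 (0.92 in experiment 1 and 1.995 in experiment 2), and the galectins lgals2a (5.23) and lgals9l1 (3.87) led. Median log2 differences from the 0 h mean at 0 h were 0.09 to 0.19 in experiment 1 and −0.63 to −0.47 in experiment 2. At 36 hpl they were 0.62 to 1.18 in experiment 1 and 0.55 to 1.04 in experiment 2.

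Notch signalling, which keeps glia and progenitors undifferentiated, was mixed at the level of transcripts. Of 31 genes 11 rose and 7 fell. The listed genes her4.2, her4.3, her15.1 and heyl had too few reads to be tested. All 4 receptor genes rose on the log2 scale, notch1a by 1.73, notch1b by 0.63, notch2 by 0.78 and notch3 by 0.99. Of the ligands, dla (0.87) and dld (2.16) were higher and dll4 (−1.04), jag1a (−1.55) and jag2b (−1.05) lower. The target hey1 was at 7.30 to 13.8 CPM (median 10.6) at 36 hpl and 46.6 to 113 CPM (median 49.3) at 0 h (−2.52) and hes6 at a log2 change of −0.87, against 3.76 for the hairy-related gene her2. Factors of committed progenitors gave 12 higher and 8 lower of 33. Those that rose included marcksb (3.08), sox4a (2.399) and hmgb2b (2.23). The proneural genes neurog1 and neurod4 were lower (−1.23 and −0.34; neurod4 was not called without 36 hpl replicate 5 or 0 h replicates 4 or 5, at −0.27 to −0.22) and atoh7 was close to the limit of counting, at 0.695 to 3.37 CPM (median 0.986) at 36 hpl and 0 to 2.04 CPM (median 1.39) at 0 h in overlapping groups (0.24).

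Most genes of DNA replication rose. Of 54 replication genes tested 41 rose and 2 fell (median 1.22; 0.99 in experiment 1 and 1.502 in experiment 2). All 6 subunits of the MCM helicase, which unwinds DNA at origins, were higher, by log2 changes from 1.97 for mcm4 to 4.59 for mcm3, and mcm2 was at 50.96 to 116 CPM (median 76.4) at 36 hpl and 0.620 to 8.62 CPM (median 2.52) at 0 h. The sliding clamp pcna was at 247 to 506 CPM (median 377) at 36 hpl and 52.3 to 111 CPM (median 74.3) at 0 h (2.27, SE 0.18) and uhrf1, which copies DNA methylation to new strands together with Dnmt1, at 92.1 to 124 CPM (median 104) at 36 hpl and 7.01 to 13.1 CPM (median 11.5) at 0 h (3.28). The GINS subunit gins1 (−1.46) and the clamp loader subunit rfc5 (−1.07) fell. Enzymes that make DNA precursors gave 20 higher and 3 lower of 39. Thymidylate synthase tyms was at 75.3 to 135 CPM (median 93.6) at 36 hpl and 0.569 to 3.73 CPM (median 1.003) at 0 h (5.87), ribonucleotide reductase rrm1 was at a log2 change of 3.07 and the dUTPase gene dut at a log2 change of 2.25. The exception with the largest fall was impdh1a, an enzyme of guanine nucleotide synthesis that photoreceptors express, at 21.5 to 39.1 CPM (median 29.8) at 36 hpl and 334 to 715 CPM (median 401) at 0 h (−3.91).

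Mitosis genes rose too, with a larger median change. Of 59 tested, 47 rose and 3 fell (median 2.26; 2.17 in experiment 1 and 2.41 in experiment 2). Topoisomerase top2a was at 394 to 534 CPM (median 455) at 36 hpl and 20.5 to 43.7 CPM (median 33.0) at 0 h (3.84, SE 0.17), mki67 was at 281 to 393 CPM (median 316) at 36 hpl and 27.4 to 45.8 CPM (median 32.1) at 0 h (3.25), and the mitotic kinase cdk1 was at 43.01 to 98.3 CPM (median 81.3) at 36 hpl and 1.86 to 4.97 CPM (median 3.52) at 0 h (4.37). The ubiquitin-conjugating enzyme ube2c (5.06), which acts at the exit from mitosis, and the spindle proteins tpx2 (2.47) and nusap1 (3.67) rose with them. The kinesin kif18a (−0.61; not called without 0 h replicate 4, at −0.46), birc5b (−1.01) and ect2 (−1.21) were lower, and cyclin ccnb2 was not called (−0.35). Of 27 genes of the G1 phase 11 rose and 1 fell. Cyclin ccnd1 was at 226 to 525 CPM (median 372) at 36 hpl and 36.6 to 70.7 CPM (median 59.1) at 0 h (2.63), the cell cycle inhibitors cdkn1a and cdkn1ca at log2 changes of 1.96 and 2.39, and cyclin ccne1 at a log2 change of −1.099.

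Set against 24 hpl, the mitosis genes were also higher at 36 hpl. In all, 809 genes were higher at 36 hpl than at 24 hpl and 687 lower. Of the mitosis genes 49 were higher at 36 hpl and 0 lower (median 2.24), with top2a at 394 to 534 CPM (median 455) at 36 hpl and 26.8 to 43.8 CPM (median 41.4) at 24 hpl (3.62, SE 0.16) and mki67 at a log2 change of 3.18. Replication genes gave 23 higher and 1 lower with a median of 0.55, and none of mcm2 to mcm6 was called in this comparison (mcm2 0.40, mcm5 0.65). The 8 genes with the largest excess over 24 hpl were zgc:194627 (5.16), si:ch211-69g19.2 (4.63), the spindle midzone gene prc1b (4.23), ube2c (4.19), the Cdk subunit cks2 (4.17), the repressor gene nfil3-5 (3.90), the hairy-related gene hes2.2 (3.88) and cdk1 (3.84). Set against 72 hpl, 1 of the mitosis genes was higher and 4 were lower at 36 hpl (median −0.10), in a comparison in which 774 of all genes stood higher and 873 lower at 36 hpl (5.92% and 6.68%). On library totals without TMM correction that split was 1045 higher and 706 lower.

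**Figure D4:**
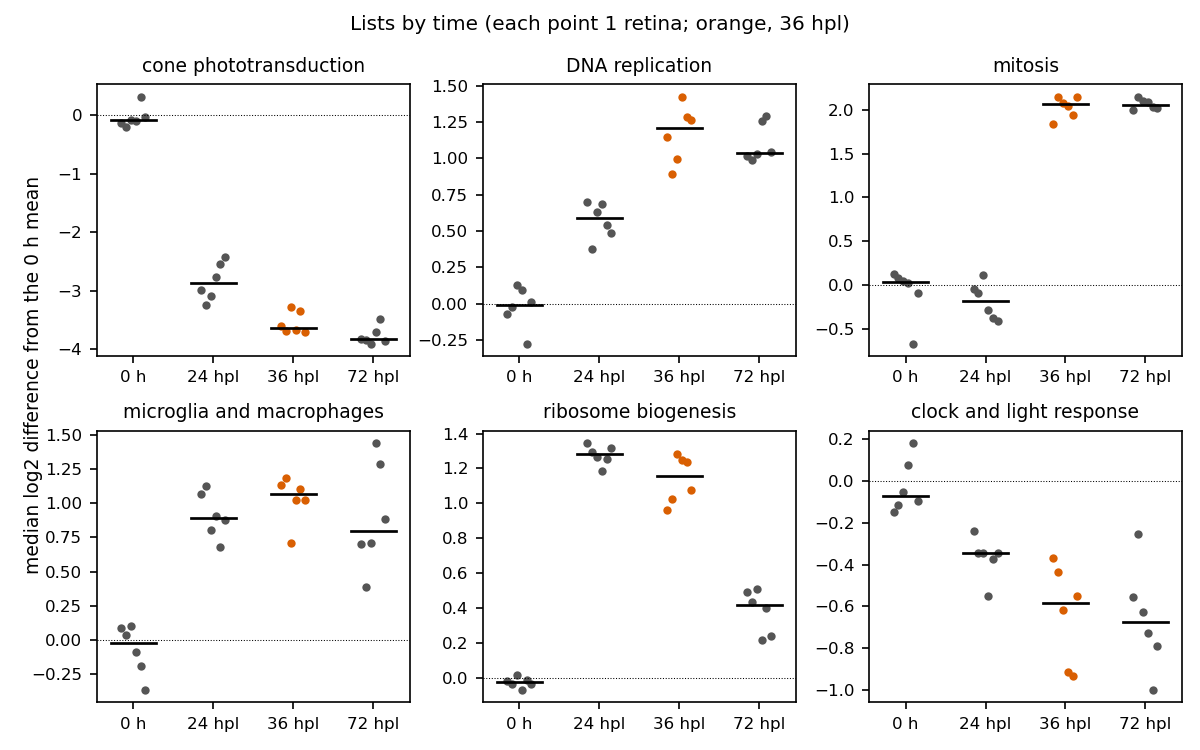
Median over the members of 6 gene lists of the log2 difference from the 0 h mean (y axis, log2 of CPM plus 1) in each retina at 0 h, 24, 36 and 72 hpl (x axis, n = 6 retinas per time), with a bar at the median of each time. Mitosis genes lie near 0 at 24 hpl and above it at 36 and 72 hpl, replication genes lie above 0 h at all 3 later times, and cone phototransduction genes lie below it at all 3.

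Chromatin genes moved in both directions, with 27 of 50 higher and 13 lower. The nucleosome-binding protein hmgn2 (2.54) and hmgb2b (2.23) rose. The related hmgb3a was at 111 to 167 CPM (median 119.6) at 36 hpl and 607 to 909.6 CPM (median 680.2) at 0 h (−2.47), hmga1b was at a log2 change of −2.87, and the DNA methyltransferase dnmt3ab and the demethylase tet3 were at log2 changes of −1.06 and −1.04. Of 74 splicing factors 49 rose and 3 fell (median 0.67), with spliceosome core proteins such as snrpf (1.65) and snrpd2 (2.15) among the clearest.

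Genes of protein synthesis rose widely. Of 89 genes taken by name as cytosolic ribosomal proteins 83 rose and 4 fell (median 1.63). Of those that fell, rps6ka3a, rps6ka4 and rps6kal are kinases caught by the name pattern and not ribosomal proteins, and rps8b is the remaining one. The stalk protein rplp1 was at 3549 to 5638 CPM (median 4508) at 36 hpl and 992 to 1572 CPM (median 1131) at 0 h (1.93). Summed over the list the level was 87450.0 to 148955 CPM at 36 hpl and 31412 to 48847 CPM at 0 h. Genes that build ribosomes in the nucleolus gave 78 higher and 4 lower of 91 (median 1.11), with nucleophosmin npm1a at 488 to 794 CPM (median 633) at 36 hpl and 41.7 to 62.6 CPM (median 49.4) at 0 h (3.67, SE 0.16) and the box C/D protein nop58 at a log2 change of 2.31. Of 72 translation factors 53 rose and 3 fell (median 0.84). Paralogs of elongation factor 1 alpha went in opposite directions, since eef1a1l1 was at 1681 to 4202 CPM (median 2846) at 36 hpl and 374 to 659.7 CPM (median 409) at 0 h (2.59) and its paralog eef1a1a at 266 to 357 CPM (median 302) at 36 hpl and 658 to 1275 CPM (median 759.5) at 0 h (−1.43). How reads of such near copies were assigned in counting, and its part in these values, was not tested. For mitochondrial ribosomal proteins the median was smaller, with 45 of 71 higher and 0 lower (median 0.67). Of these 71 genes 15 were higher in experiment 1, 42 in experiment 2 and 54 on library totals. Only 11 of the 71 were higher without overlap between the groups, where the share over all genes was 13%. Compared with 72 hpl, ribosome biogenesis genes were higher at 36 hpl (70 higher and 1 lower, median 0.78) while ribosomal protein genes gave 3 higher and 0 lower (median −0.05).

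Many genes of protein folding and protein removal rose. Of 50 heat shock genes 35 rose and 7 fell (median 0.94). The inducible hsp70.3 was at 51.4 to 163 CPM (median 134) at 36 hpl and 0 to 6.26 CPM (median 2.196) at 0 h (5.29), the mitochondrial chaperonin hspd1 was at 379 to 666 CPM (median 534) at 36 hpl and 93.8 to 129 CPM (median 102) at 0 h (2.299) and its partner hspe1 at a log2 change of 2.43. Those that fell included the heat shock factors hsf1 (−0.58) and hsf2 (−1.74) and small heat shock proteins such as the lens crystallin cryaba (−4.29; not called without 0 h replicate 2, at −1.22), whose groups overlapped. All 13 genes of the cytosolic CCT chaperonin and prefoldin, which fold tubulin and actin, rose (median 1.34), among them cct2 with 399 to 593 CPM (median 492) at 36 hpl and 150.2 to 213 CPM (median 167) at 0 h (1.52). Genes of the endoplasmic reticulum gave 30 higher and 4 lower of 50 (median 0.79). The lumenal chaperone hspa5 was at 432 to 1926 CPM (median 928) at 36 hpl and 117 to 274 CPM (median 168) at 0 h (2.39), the stress factors ddit3 and xbp1 at log2 changes of 1.40 and 1.22, and the stress sensor ern1 at a log2 change of −0.77 (not called without 36 hpl replicates 2, 3 or 6 or 0 h replicates 5 or 6, at −0.69 to −0.62). Of 59 proteasome genes 53 rose and 1 fell (median 1.02). The core subunit psma4 was at 259 to 450.1 CPM (median 344) at 36 hpl and 101 to 137 CPM (median 109.6) at 0 h (1.59), the activator psme1 at 58.4 to 128 CPM (median 77.8) at 36 hpl and 1.86 to 8.08 CPM (median 6.06) at 0 h (3.96), and the activator psme4b was the one that fell (−1.09). The amino acid response run by Atf4 was less uniform, with 22 of 47 higher and 8 lower. The factor atf4b rose (1.296) and atf4a was not called (−0.26), the tRNA synthetase wars rose (2.23) and the glutathione-degrading enzyme chac1 fell (−1.01).

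Genes of glycolysis, on which photoreceptors depend for energy, were mostly lower. Of 41 genes 26 fell and 2 rose (median −0.73). The glucose transporter slc2a1a was at 3.21 to 11.2 CPM (median 5.75) at 36 hpl and 83.6 to 169 CPM (median 128) at 0 h (−4.38, SE 0.25), the enolase eno1b at 28.1 to 70.22 CPM (median 53.6) at 36 hpl and 382 to 689 CPM (median 437) at 0 h (−3.29), and pyruvate kinase pkma at a log2 change of −0.91. Hexokinases differed in direction, with hk1 at a log2 change of −0.94 and hk2 at a log2 change of 1.03. The nuclear genes of the respiratory chain, in contrast, had a median of 0.04, with 14 of 83 higher, 4 lower and 65 not called. The number higher was 26 on library totals, 3 in experiment 1 and 21 in experiment 2, 9 without 36 hpl replicate 4 or 5, and 23 (with 9 lower) without the 5 dpl replicate 2. Genes of cholesterol and fatty acid synthesis gave 19 lower and 2 higher of 44. The elongase elovl4b, which makes the very long fatty acids of photoreceptor membranes, was at 153 to 261 CPM (median 209.7) at 36 hpl and 2057 to 3453 CPM (median 2634) at 0 h (−3.64), and the sterol enzyme hmgcs1 was at a log2 change of −1.46.

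Markers of microglia and macrophages, the resident phagocytes, rose. Of 43 tested, 23 rose and 2 fell (median 1.39; 0.90 in experiment 1 and 1.70 in experiment 2). The macrophage gene mpeg1.1 was at 18.7 to 50.5 CPM (median 34.4) at 36 hpl and 2.79 to 15.4 CPM (median 7.49) at 0 h (1.99, SE 0.35) and the myeloid transcription factor spi1b at 79.2 to 148 CPM (median 104) at 36 hpl and 4.65 to 21.6 CPM (median 13.97) at 0 h (2.97). The microglial receptor p2ry12 rose (2.65), while the receptor csf1ra was not called (0.97, adjusted p = 0.0882 in the edgeR fit). Progranulin gene grn2 was counted with 831 reads over the 36 hpl retinas and 2 at 0 h (a ratio of 247, 95% counting interval 68.1 to 2039.6). Members that fell were the invariant chain cd74a (−1.04) and csf3r (−0.83; not called without 0 h replicate 6, at −0.58). The summed level of the list was 2483 to 5404 CPM at 36 hpl and 1298 to 1609.8 CPM at 0 h. Apolipoprotein apoeb, which Müller glia also express, gave 1107 to 2378 CPM (median 1637) of this at 36 hpl and 409.6 to 600.0 CPM (median 518) at 0 h. Lysosomal genes showed 26 higher and 6 lower of 69, with cathepsins ctsla (437 to 1066 CPM (median 655) at 36 hpl and 29.1 to 127 CPM (median 82.8) at 0 h, log2 change 3.102) and ctsc (3.64). The autophagy gene vmp1, which helps form autophagosomes, was at 1165 to 1771 CPM (median 1576) at 36 hpl and 60.1 to 116 CPM (median 101) at 0 h (3.97, SE 0.15, adjusted p = 4.96e-29).

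Other immune lists were less uniform. Of 11 neutrophil genes 4 rose, among them mmp9, adam8a (4.35) and lysozyme lyz (2.70), which are not particular to neutrophils, while the myeloperoxidase mpx was not called (1.02; called without 36 hpl replicates 2 or 3, at 1.16 to 1.198). Of 13 lymphocyte genes 1 rose and 4 fell, and the one that rose, cd3eap (1.81), codes for a subunit of RNA polymerase I and not for a T cell protein. Complement and acute phase genes gave 6 higher and 6 lower of 26, with 2 or 3 lower without 36 hpl replicate 2, 4 or 5 or 0 h replicate 3, 5 or 6. The 3 chains of complement C1q were higher, with c1qc at 18.4 to 23.9 CPM (median 19.1) at 36 hpl and 0 to 1.71 CPM (median 0.775) at 0 h (4.52), c1qa at a log2 change of 4.43 and c1qb at a log2 change of 3.16; complement factor c3a.1 was not called (−0.09). Of 31 interferon-linked genes 20 rose and 3 fell (median 1.19; 0.90 in experiment 1 and 2.23 in experiment 2). Those that rose included the antigen-presentation genes b2m (93.5 to 201 CPM (median 122) at 36 hpl and 8.36 to 21.0 CPM (median 11.9) at 0 h, log2 change 3.31) and tapbp.1 (3.26), the guanylate-binding protein gbp1 (3.70) and irf1b (3.32), while the antiviral genes rsad2 (−1.82; not called without 0 h replicates 2 or 3, at −1.67) and mxc (−0.999; not called without 36 hpl replicates 2, 4 or 6 or 0 h replicates 3, 4 or 6, at −0.98 to −0.68) and the factor irf7 (−0.92) were lower. Of 40 genes around TNF, IL-1 and NF-kB 9 rose and 5 fell. The cytokines tnfa (−1.54) and il1b (−0.51) were not called and were near the limit of counting, with tnfa at 0 to 1.07 CPM (median 0.722) at 36 hpl and 0 to 4.65 CPM (median 1.74) at 0 h in overlapping groups, and the inhibitor nfkbiaa rose (2.53).

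Structural genes of the extracellular matrix were lower more often than higher, and matrix proteases the reverse. Of 22 matrix proteases and their inhibitors 9 rose and 4 fell. Of 45 genes of collagens, laminins and integrins 18 fell and 3 rose, with col15a1b at a log2 change of −1.997, tenascin-R, tnr, at a log2 change of −1.34 and the integrin itgb1b at a log2 change of 2.29. Of 58 genes of axon guidance 17 fell and 5 rose, where 23.4% of all genes fell. Within experiment 1 the guidance counts were 7 lower and 5 higher, and within experiment 2 they were 17 and 5. Semaphorin sema7a was at 13.9 to 23.6 CPM (median 19.8) at 36 hpl and 128 to 174 CPM (median 157) at 0 h (−2.99) and sema6d at a log2 change of −2.33, while the receptors plxnd1 (2.61) and nrp2b (2.14) rose. Among genes of cell death and its control, 18 of 49 rose and 8 fell, with the pro-apoptotic gene baxa at 117 to 174 CPM (median 137) at 36 hpl and 38.5 to 71.9 CPM (median 43.1) at 0 h (1.59) and mdm2 at a log2 change of −0.53 (not called without 36 hpl replicates 2 or 4 or 0 h replicates 4 or 6, at −0.52 to −0.39). Of 56 antioxidant and iron genes 21 rose and 14 fell. Thioredoxin txn was at 324 to 685 CPM (median 517) at 36 hpl and 13.7 to 26.9 CPM (median 16.7) at 0 h (4.78, SE 0.22), heme oxygenase hmox1a was at a log2 change of 2.13, and the metallothionein genes mt2 and mtbl were at log2 changes of −1.83 and −2.52.

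Many clock genes differed at 36 hpl. Since 36 h is not a whole number of days, time of day, light itself and the lesion cannot be told apart. Of 52 genes 25 fell and 11 rose (median −0.64). The period gene per1b was at 22.5 to 43.9 CPM (median 34.4) at 36 hpl and 440.4 to 618 CPM (median 506) at 0 h (−3.98, SE 0.21), per3 was at a log2 change of −2.88, and the light-responsive per2 was not called (0.25; 0.85 in experiment 1 and −0.15 in experiment 2; called without 0 h replicate 5, at 0.52). The output factors dbpa (−2.90), hlfa (−2.24) and bhlhe40 (93.6 to 166 CPM (median 114) at 36 hpl and 761 to 1008 CPM (median 850.3) at 0 h, log2 change −2.78) and the feedback gene ciarta (−3.29) were lower. The repressors nfil3 (56.1 to 99.0 CPM (median 70.7) at 36 hpl and 2.84 to 23.0 CPM (median 5.58) at 0 h, log2 change 3.19) and nfil3-2 (2.15), the Clock partner arntl2 (1.88) and the cryptochromes cry1ba (0.93) and cry1bb (1.49) were higher. The 24 hpl retinas were taken a whole day after 0 h. Of the clock list 12 were higher and 20 lower at 36 hpl than at 24 hpl, and of the 8 largest excesses of 24 over 36 hpl 4 were clock genes, ciarta (−3.69), nr1d1 (−3.48), cry2 (−2.56) and bhlhe41 (−2.54). The others were si:ch211-132b12.7 (−4.32), the kinase prkg2 (−2.995), the transporter abcc2 (−2.73) and the water channel aqp8a.1 (−2.71).

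Several of the largest rises over 0 h belong to none of these groups. The gene stm (starmaker), known in zebrafish for its part in forming the ear stones, was at 637 to 1668 CPM (median 855) at 36 hpl and 5.57 to 16.4 CPM (median 9.73) at 0 h (6.58, SE 0.52). The gene lim2.2, of a family named for a lens membrane protein, was at 100.2 to 203 CPM (median 138) at 36 hpl and 0 to 6.84 CPM (median 1.95) at 0 h (5.85). It is not on the lens list, of which no gene rose with all 12 retinas in the fit. The related genes lim2.3, lim2.4 and lim2.5 are on that list but were not tested. Neither stm nor lim2.2 overlapped between the groups. The urotensin gene uts2a (5.71), cdca7a, a gene of dividing cells (5.81), the chromatin reader ing5b (5.50), kctd4 (5.89) and zgc:194627 (6.59) were others among the 15 largest. Against 72 hpl, stm (3.74 to 15.5 CPM (median 10.7) at 72 hpl, log2 change 6.52), cpa4 (4.101), apobec2b (4.02), the complement factor cfb (3.85), uts2a (3.66), gadd45bb (2.71) and the matrix protein kera (2.39) were among the 8 genes with the largest excess at 36 hpl. The 8 with the largest deficit were atoh7 (−4.85), the apelin receptors aplnra (−4.64) and aplnrb (−3.01), insm1a (−4.03), fabp1a (−3.75), si:ch73-28h20.1 (−3.49), rlbp1a (−3.16) and pou3f1 (−2.997). The comparisons with 0 h, 24 hpl and 72 hpl share the 36 hpl retinas.

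The size of the change differed between experiments for 148 of 13075 genes (1.13%), by the interaction term of edgeR's quasi-likelihood test, and 101 of them had the same sign in both. The change was the more positive one in experiment 2 for 100 of these genes (0.765% of those tested). The clearest were the endoplasmic reticulum chaperone hsp90b1 (1.43 in experiment 1 and 3.45 in experiment 2, adjusted p = 4.44e-05), armc1l (1.34 in experiment 1, and 0 reads in the 3 experiment 2 retinas at 0 h, so that no fold is given there), the cryptochrome cry1bb (2.79 and 0.87), the mitotic kinase plk1 (1.45 and 4.02) and klf13 (−0.04 and −2.09). Of these, klf13 was not called within experiment 1. The number of such genes was unstable, since leaving out any 1 of the 12 retinas moved it by more than 1.5 times, to 305 without 0 h replicate 5 and to between 28 and 82 without each of the others, and it was 309 without a 5 dpl library (replicate 2) that takes no part in the comparison. Averaged across the time points, 7070 genes differed between the experiments, a difference that the experiment term takes up.

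**Figure D5:**
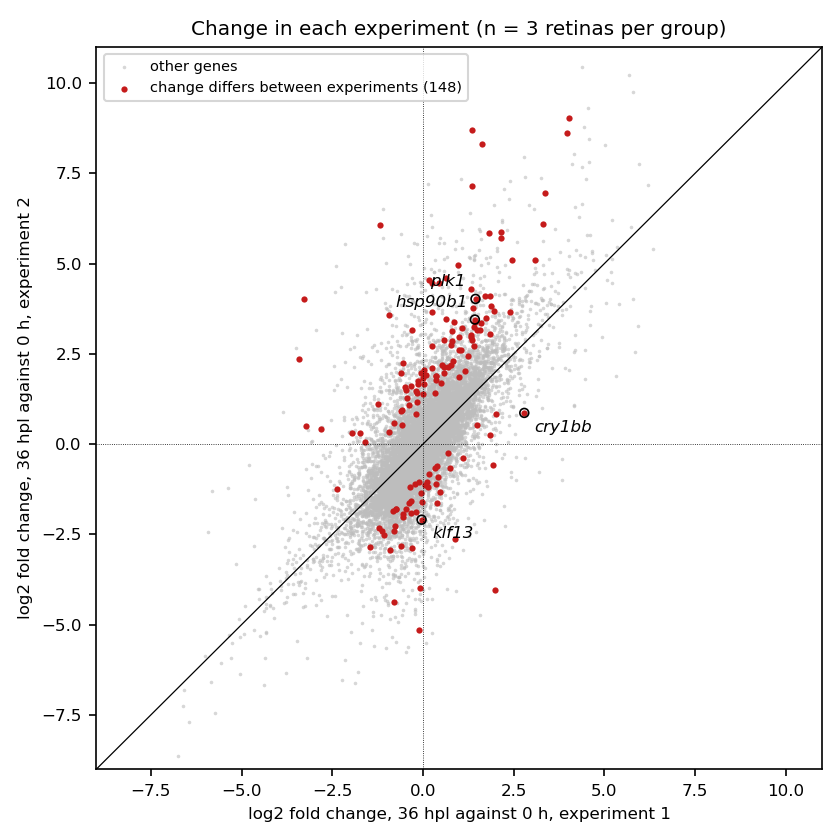
Log2 fold change at 36 hpl against 0 h in experiment 2 (y axis) and experiment 1 (x axis) for the genes tested, n = 3 retinas per group in each. Red points are the 148 genes whose change differed between the experiments, and the diagonal marks equal change; hsp90b1 and plk1 lie above it and cry1bb and klf13 below it.

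Genes of tissues next to the retina gave the following values. Of 16 genes of the retinal pigment epithelium and its melanosomes 8 rose and 2 fell, with a summed level of 2002 to 4986 CPM at 36 hpl and 1977 to 4263 CPM at 0 h in overlapping groups, and tyrp1b at 235 to 799 CPM (median 481) at 36 hpl and 55.2 to 103 CPM (median 78.9) at 0 h (2.49). Of 27 lens genes, a list that does not hold lim2.2, 0 rose and 12 fell, with sums of 83.5 to 116 CPM at 36 hpl and 101 to 1307 CPM (median 113) at 0 h, which overlapped. The 0 h replicate 2 stood apart. The median log2 difference of lens genes from their 0 h mean was −1.22 to −0.58 in the 36 hpl retinas, against 0.73 in this retina and −0.96 to −0.46 in the other 5 at 0 h, and without this retina 6 lens genes fell and 2 rose. Of 28 muscle genes 0 rose and 3 fell, of 22 genes of epidermis and cornea 1 and 5 (3 without 36 hpl replicate 4 or 6 or 0 h replicate 4), of 14 erythrocyte genes 1 and 4, and of 28 vessel genes 5 and 10, the last with the tight junction genes cldn5a (2.498) and cldn5b (3.43) higher and the endothelial cadherin cdh5 (−0.93) lower. The part of carried-over tissue in the results for rpe65a and other pigment epithelium genes was not tested.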

How the data were processed

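RNA of single retinas was sequenced by the QuantSeq 3′ mRNA-seq method, which counts each transcript once near its 3′ end. Per the study's methods and the submitters' processing notes, the authors aligned reads with STAR to zebrafish build danRer10 and counted them per gene with HTSeq (tool versions are not given in the sources used here), and deposited raw counts, not normalized, in 7 tables of 15245 genes. The 0 h columns repeat across the tables and were used once, which gave 48 libraries in 8 time points. Total counts per library limit the precision of low genes, and counting intervals cover counting error only.

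The raw counts were tested with edgeR 4.0.16 (R 4.3.3): TMM normalization, a minimum of 5 reads in 6 or more libraries, a quasi-likelihood fit with terms for time point and experiment over the 48 libraries, and Benjamini-Hochberg adjustment over all 13075 genes. The change within each experiment and the difference between experiments came from a fit of the same kind with an interaction. Standard errors were taken from the fold change and its F statistic. CPM levels were computed on TMM-corrected library sizes, and figures add 0.1 CPM, or 1 CPM before log2. DESeq2 1.42.0 was an alternative, beside other scalings, filters, terms and sets of libraries.

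The time point comparison, the 56 gene lists and their members were chosen with earlier results of these data known. Genes named are the 15 highest and 15 lowest log2 fold changes with a mean of at least 20 CPM and no overlap between the retinas, up to 8 each against 24 and 72 hpl, the 5 clearest differences between experiments, genes the study names, and of each list the first 6 members, the 6 clearest and those called against the list's direction. Some genes that this rule names are not reported here. Coordinates and sequences were not analysed here.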

Additional observations from a re-analysis of the deposited data

Results flagged for a closer look

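Single retinas stood apart from the other 5 of their group in 18 of the 154 groups of levels printed above, by Dixon's criterion for 6 samples, where chance gives about 1 in 20. In 9 of these the 0 h replicate 5 was the highest 0 h retina, with crx at 1385 CPM, eef1a1a at 1275 CPM, eef1a1l1 at 659.7 CPM, nfil3 at 23.0 CPM, opn1lw1 at 3519 CPM, opn1mw2 at 3280.4 CPM, opn1sw1 at 9167 CPM, pdcb at 5175 CPM and tuba1b at 35.4 CPM. The 0 h replicate 4 was highest for anxa2a (6.20 CPM), baxa (71.9 CPM), hey1 (113 CPM) and lepb (4.96 CPM), and 0 h replicate 3 for the activity gene egr4 (82.5 CPM). Among the light-treated retinas 36 hpl replicate 2 was highest for atoh7 (3.37 CPM), 36 hpl replicate 4 was lowest for cx52.6 (3.09 CPM), 36 hpl replicate 5 was highest for opn1sw1 (448 CPM) and 36 hpl replicate 5 was highest for rpe65a (1342 CPM). The total count of 0 h replicate 6, 1111503, lay below the other 5 of its group by the same criterion. None of these values was left out. The flags of 0 h replicate 5 come from 1 library and are not independent of each other. Its TMM factor, 0.8435, was the lowest of the 12 libraries compared. Its median log2 difference from the 0 h mean was 0.64 over opsins, 0.38 over cytosolic ribosomal proteins and −0.67 over mitosis genes. Over outer segment and cilium genes it was 0.07.

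The change at 36 hpl was the more positive one in experiment 2 for hsp70.3 (4.98), hsp90b1 (2.02), hspa5 (1.66), mcm2 (2.79), plk1 (2.57), psme1 (2.03) and socs3b (4.65), and the more negative one for cry1bb (−1.93) and klf13 (−2.05), as differences between the 2 experiments in log2 fold change that passed edgeR's interaction test. The heat shock and endoplasmic reticulum chaperones hsp70.3, hsp90b1 and hspa5 are among those with the larger change in experiment 2. The differences of hsp70.3 and socs3b rest on 1 read each at 0 h in experiment 2. Reads there were also few for mcm2 (6), psme1 (14) and plk1 (25), while hsp90b1 had 313 and hspa5 815. In experiment 1 the 0 h reads were 29 for hsp70.3, 16 for socs3b, 34 for mcm2, 42 for psme1 and 177 for plk1. For hsp90b1 and hspa5 they were 581 and 954. At 36 hpl plk1 had 675 reads in experiment 1 and 874 in experiment 2, and hspa5 3729 and 15596. Reads of cry1bb at 0 h were 138 in experiment 1 and 566 in experiment 2, and of klf13 1167 and 2740. Several of these genes thus differed at 0 h already, and the part of each time point was not tested. For armc1l the fitted difference was 7.36, a value set by the fit since no read was counted at 0 h in experiment 2. The experiments used different fish, and their libraries differed as well. At 0 h and 36 hpl, 13711 to 13887 genes had reads in the libraries of experiment 1 and 12342 to 13207 in those of experiment 2. The part of either in the differences was not tested.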

How the results depend on the processing

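The number of genes changed against 0 h was 6141, and 4016 in experiment 1 alone and 3554 with a further limit of 2-fold. Against 24 hpl it was 1496, and 942 without the experiment term, 799 in experiment 1, 747 in experiment 2 and 525 with the 2-fold limit. Against 72 hpl it was 1647, and 2550 with only the 12 libraries compared, 760 in experiment 1, 878 in experiment 2 and 536 with the 2-fold limit. The number that differed between experiments was 148, and 309 without 5 dpl replicate 2. Leaving out 1 retina at a time gave 5625 to 6216 genes against 0 h, 1214 to 1600 against 24 hpl, 1379 to 1574 against 72 hpl and 28 to 305 between experiments. Every other setting run left these counts within 1.5 times, DESeq2 included for the 3 comparisons of time points. DESeq2 was not run for the difference between experiments.

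Replicate numbers are shared by all groups, but no label says that a number marks a litter or day, and within group and experiment the deviations of same-numbered retinas correlated at −0.10 to −0.02 (0.05 to 0.28 from the group means alone, where only number 5 correlated best with itself). A fit with the replicate number as a block gave 6034 genes against 0 h, 1421 against 24 hpl and 1552 against 72 hpl.

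Of the log2 fold changes named, 79 of 6678 recomputed values lost their call and 15 gained one, and for list counts 175 of 2576 moved by more than 1.5 times, 37 of them in experiment 1 alone. The change of klf13 turned to 0.011 in experiment 1 alone, and its cause was not tested. Signs turned in 14 further values called under neither setting. The shallower 0 h libraries and genes under a few CPM limit what could be called.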
